A study of Canis lupus familiaris with 186 samples.

Results

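The genes described here handle the phosphate, pyrophosphate and citrate from which bone mineral is formed. They are SLC13A5, ANKH, ENPP1, PHOSPHO1, SLC20A1 and SLC20A2, chosen by name, and each has 1 row among the 37952 genes of the deposited table. The samples were 186 primary osteosarcomas, each from a different pet dog (Canis lupus familiaris) of the trial COTC021 (n = 93) or COTC022 (n = 93). Tumors arose in the limb bones and were sampled before any treatment, from dogs without macroscopic metastasis, so that the groups compared here differ in trial and not in a treatment received before sampling. Messenger RNA was sequenced from bulk tissue. The labels give no age, breed or outcome, and clinical outcome was not analysed here.

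Hydroxyapatite, the mineral of bone, is laid down where inorganic phosphate is plentiful and its inhibitor pyrophosphate is scarce. ENPP1 is an ectoenzyme that cleaves extracellular ATP into AMP and pyrophosphate, and ANKH is a membrane protein through which cells release ATP, and citrate, to the outside. PHOSPHO1 is a phosphatase that frees phosphate from phosphocholine and phosphoethanolamine inside matrix vesicles, where crystals begin. SLC20A1 (PiT-1) and SLC20A2 (PiT-2) are sodium-dependent phosphate importers, and SLC13A5 is a sodium-dependent importer of citrate, an abundant organic component of bone mineral. SP7 (osterix), a transcription factor required for osteoblasts to form, was used as the measure of the osteoblast lineage.

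On the canine build GSD_1.0, SLC13A5 lies on chromosome 5 from 30854574 to 30876850, ANKH on chromosome 4 from 89403928 to 89519108, and ENPP1 on chromosome 1 from 209085 to 282880. PHOSPHO1 lies on chromosome 9 from 25338673 to 25344838, SLC20A1 on chromosome 17 from 37044911 to 37061103, and SLC20A2 on chromosome 16 from 23900978 to 24001628. All are annotated as protein coding, and the values are sums over a gene's transcripts rather than over single exons. PHOSPHO1 shares 951 bases with the protein coding gene LOC111097371, and SLC20A2 shares 221 bases with SMIM19, so reads from these stretches could be assigned to either gene.

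Library totals lay between 6587634 and 27420867 counts (median 10797171), and no pair of libraries held identical values. The names of 50 deposited columns carry a doubled _ sign (18 dogs of COTC021 and 32 of COTC022). These libraries had a median total of 19440456, against 9851682 in the other 136, and are called the 50 deeper libraries, although the library with the highest total is among the others. For this reason, SP7 and GS-1 slopes and the correlations of the 6 genes were taken by trial and by group of libraries as well, and the trial difference by group of libraries. Slopes on marker scores were fitted over all dogs only. In 14 dogs, SP7 was under a log2 CPM of 1.5 (1.105 at most), apart from the other 172 dogs, which began at 2.10. Of these 14 tumors, 10 were from COTC021 and 4 from COTC022, and 2 were deeper libraries. Slopes on SP7 and GS-1, and correlations with SP7, are given with and without them, a step chosen after the values were seen. They are included in the differences between trials, in the models with both measures, in the marker scores and in all other correlations.

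Levels are given as CPM, the deposited counts of a gene scaled to the library total. They are not scaled by gene length, so they were compared between dogs and not between genes. ENPP1 was measured in every tumor, from 5.25 to 978.6 CPM with a median of 134.8 CPM. ANKH was likewise measured in every tumor, from 5.57 to 602.9 CPM with a median of 64.5 CPM. For both genes of pyrophosphate supply, the dogs at the 90th percentile were about an order of magnitude above those at the 10th, with ratios of 10.4 for ANKH and 8.84 for ENPP1.

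PHOSPHO1 ranged from 0 to 38.3 CPM with a median of 4.39 CPM. It had no count in 4 tumors and fewer than 10 counts in 27, and the 90th percentile was 44.9 times the 10th. SLC13A5 had the widest spread of the 6 genes, from 0 to 455.3 CPM with a median of 7.18 CPM. No count was found in 18 tumors, which with a limit of 3 counts allows a level of up to 0.148 to 0.447 CPM depending on the library, for counting error only, and 51 tumors had fewer than 10 counts. The highest dog, of COTC021, stood at 455.3 CPM, and the next at 220.5 CPM.

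The phosphate importers differed from each other in spread. SLC20A1 was found in every tumor between 27.9 and 658.4 CPM, with a median of 88.6 CPM, and its 90th percentile was only 2.50 times its 10th. Its highest dog, of COTC021, reached 658.4 CPM, against 264.6 CPM in the next, and without that dog the SD over the others was 35.4 rather than 54.3 CPM. SLC20A2 ran from 3.83 to 200.5 CPM with a median of 19.5 CPM, and the 90th percentile was 8.94 times the 10th.

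**Figure D1:**
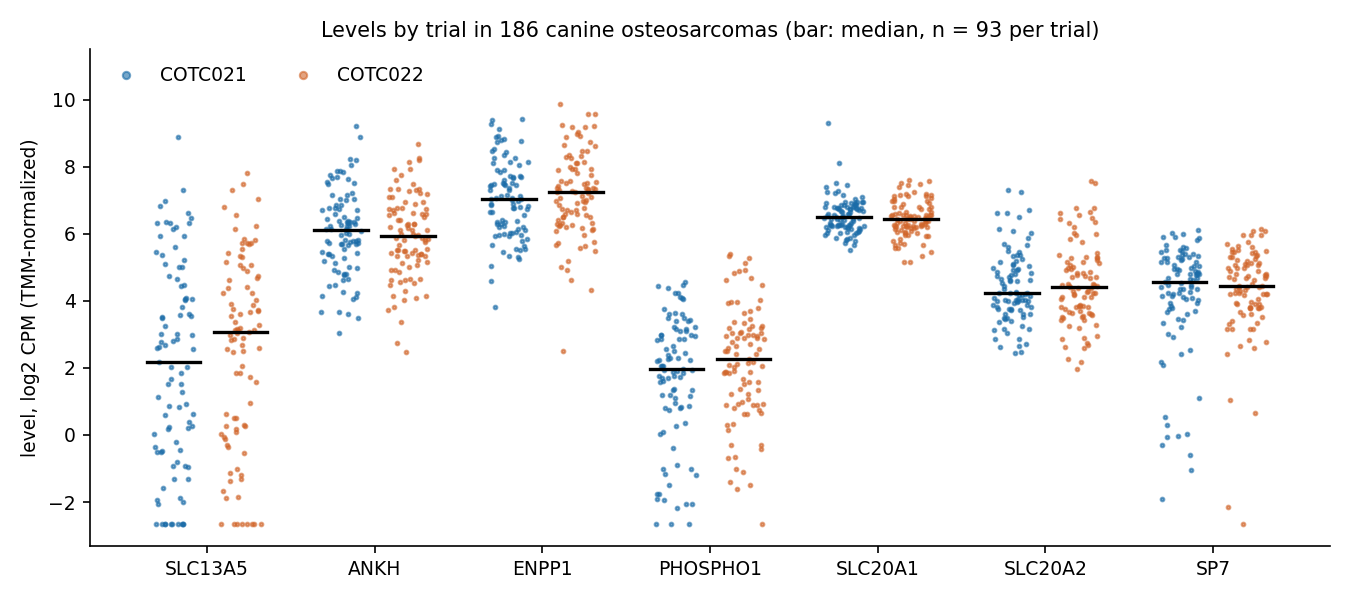
The vertical axis gives the level as TMM-normalized log2 CPM, and each point is 1 dog of COTC021 or COTC022, with a bar at the median of 93 dogs. SLC13A5 spans the widest range of the 6 genes (SD 2.96) and SLC20A1 the narrowest (SD 0.54), and the trials overlap for every gene.

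On the TMM-normalized log2 CPM scale, the SD of SLC13A5 was 2.96, larger than that of 99.7% of the 13422 genes that passed the filter on low counts. PHOSPHO1 had an SD of 1.84, larger than that of 95.8% of genes. The SDs of ANKH (1.25), ENPP1 (1.22) and SLC20A2 (1.14) exceeded those of 85.6%, 84.9% and 82.4% of genes. SLC20A1 was the exception, with an SD of 0.54, below the median over all genes of 0.62 and above that of 38.5% of genes.

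The first comparison asked whether the trials differed. Mean PHOSPHO1 was 5.67 ± 5.49 CPM (SD, n = 93) in COTC021 and 7.54 ± 8.47 CPM (SD, n = 93) in COTC022. Mean SLC13A5 was 24.1 ± 55.4 CPM in COTC021 and 22.0 ± 36.6 CPM in COTC022, and the medians, at 4.20 and 8.18 CPM, were in the opposite order. Mean ENPP1 was 179 ± 154 CPM and 209 ± 197 CPM in these trials, and mean ANKH was 95.6 ± 98.9 CPM and 85.7 ± 78.2 CPM. Mean SLC20A1 was 103 ± 67.7 CPM and 92.8 ± 36.0 CPM, and mean SLC20A2 was 29.1 ± 29.2 CPM and 32.8 ± 33.6 CPM. The dogs of the trials overlapped throughout. None of the 6 genes was called, where 0.0149% of all genes tested were, namely RAB24 and VPS9D1 (limma-voom, Benjamini-Hochberg adjusted p under 0.05). Without adjustment, 1332 genes had a p under 0.05. The adjusted p of the 6 genes ran from 0.630 for PHOSPHO1 to 0.890 for ANKH. The 95% confidence interval of the difference was narrow for SLC20A1, from 0.835-fold to 1.04-fold, and wide for SLC13A5, from 0.649-fold to 2.60-fold. Between the 50 deeper libraries and the others, 4.27% of genes differed (1.92% higher in the deeper ones and 2.35% lower) and none of the 6 did, with adjusted p from 0.573 for SLC13A5 to 0.975 for ANKH.

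The next comparison asked how the genes varied with SP7 among the tumors. SP7 ranged from 0 to 74.8 CPM with a median of 23.2 CPM. Slopes are changes in log2 CPM per log2 unit of SP7, that is, per doubling of SP7, with the trial in the model. PHOSPHO1, SLC13A5, ANKH, ENPP1 and SLC20A2 were higher, and SLC20A1 lower, in tumors with more SP7, and each slope was called (limma-voom with Benjamini-Hochberg adjustment). A large share of all genes did the same: 44.9% of 13421 were called, 21.8% higher and 23.1% lower. Without the 14 dogs with low SP7, 33.4% were called, 15.6% higher and 17.9% lower. Calls on this axis were therefore common, and the genes are compared by the size of their slopes. A slope also depends on the spread of the gene, with an SD of 2.96 for SLC13A5 and 1.25 for ANKH. It is therefore not a measure of how closely a gene follows SP7, for which r is given below. In bulk tumor, fewer cells of a type and less RNA per cell cannot be told apart.

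In the main fit, PHOSPHO1 had the steepest slope, 0.93 (SE 0.091, adjusted p = 2.40e-17 by limma-voom), which is 1.91-fold per doubling of SP7. It was similar in both trials (1.01 in COTC021 and 0.85 in COTC022) and in both groups of libraries (0.93 in each), and it was 0.98 without the 14 dogs with low SP7 (adjusted p = 9.03e-11). In the scatter of levels against SP7, the tumors with low SP7 also held little PHOSPHO1, with fewer than 10 counts in 13 of the 14, and among the others the level increased with SP7.

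SLC13A5 followed with a slope of 0.86 (SE 0.223, adjusted p = 0.000788 by limma-voom), or 1.81-fold per doubling. Its spread was larger, with an interval from 1.34-fold to 2.46-fold, and among the 172 dogs with more SP7, 39 still had fewer than 10 counts of SLC13A5. Without the 14 dogs with low SP7, the slope was 0.70 and no longer called (adjusted p = 0.0530). It was 1.06 in COTC021 (adjusted p = 0.00325) and 0.66 in COTC022 (adjusted p = 0.134). In the 50 deeper libraries it was 1.14 and not called (adjusted p = 0.149), and in the other 136 it was 0.68 (adjusted p = 0.0191). The order of PHOSPHO1 and SLC13A5 depended on the method. By edgeR's quasi-likelihood fit, the slope was 0.77 for PHOSPHO1 and 0.98 for SLC13A5, and by DESeq2 0.75 and 0.98. With limma-voom and no filter on low counts, it was 0.74 for PHOSPHO1 and 0.87 for SLC13A5.

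ANKH had a slope of 0.27 (SE 0.058, adjusted p = 4.99e-05 by limma-voom), or 1.21-fold per doubling, which remained called in both trials, in both groups of libraries and without the dogs with low SP7 (0.30, adjusted p = 0.0135). ENPP1 had a slope of 0.23 (SE 0.054, adjusted p = 0.000201), or 1.17-fold. Without the dogs with low SP7, that of ENPP1 was 0.16 and no longer called (adjusted p = 0.216). In the deeper libraries it was 0.31 and not called (adjusted p = 0.0523), and in the other 136 it was 0.22 (adjusted p = 0.00277).

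The phosphate importers had slopes of opposite sign. SLC20A2 rose by 0.21 per log2 unit of SP7 (SE 0.059, adjusted p = 0.00203 by limma-voom), or 1.15-fold per doubling, and by 0.25 without the dogs with low SP7 (adjusted p = 0.0340). In COTC022 alone it was 0.22 (adjusted p = 0.0912), and in the deeper libraries 0.13 (adjusted p = 0.476). SLC20A1 fell by 0.07 (SE 0.024, adjusted p = 0.00771), or 0.950-fold per doubling. This call was lost without the dog of COTC021 with the highest SLC20A1 (-0.05, adjusted p = 0.0570) and without the dogs with low SP7 (-0.08, adjusted p = 0.145). That dog is itself among the 14 dogs with low SP7, so these removals overlap. By trial, the SLC20A1 slope was -0.10 in COTC021 (adjusted p = 0.00727 by limma-voom) and -0.03 and not called in COTC022 (adjusted p = 0.567). In the 50 deeper libraries, the SLC20A1 slope was 0.07 (adjusted p = 0.292), and in the other 136 it was -0.12 (adjusted p = 0.000359). A difference of this slope between the groups of libraries was called for SLC20A1 and for none of the other 5 genes, where 4.27% of genes were called (0.931% higher in the deeper libraries and 3.34% lower). The call for SLC20A1 was lost without the dog with its highest level (adjusted p = 0.0625 by limma-voom). It was also lost without the 14 dogs with low SP7 (adjusted p = 0.624), where calls over all genes went from 573 to 0, with 1077 genes at an unadjusted p under 0.05.

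**Figure D2:**
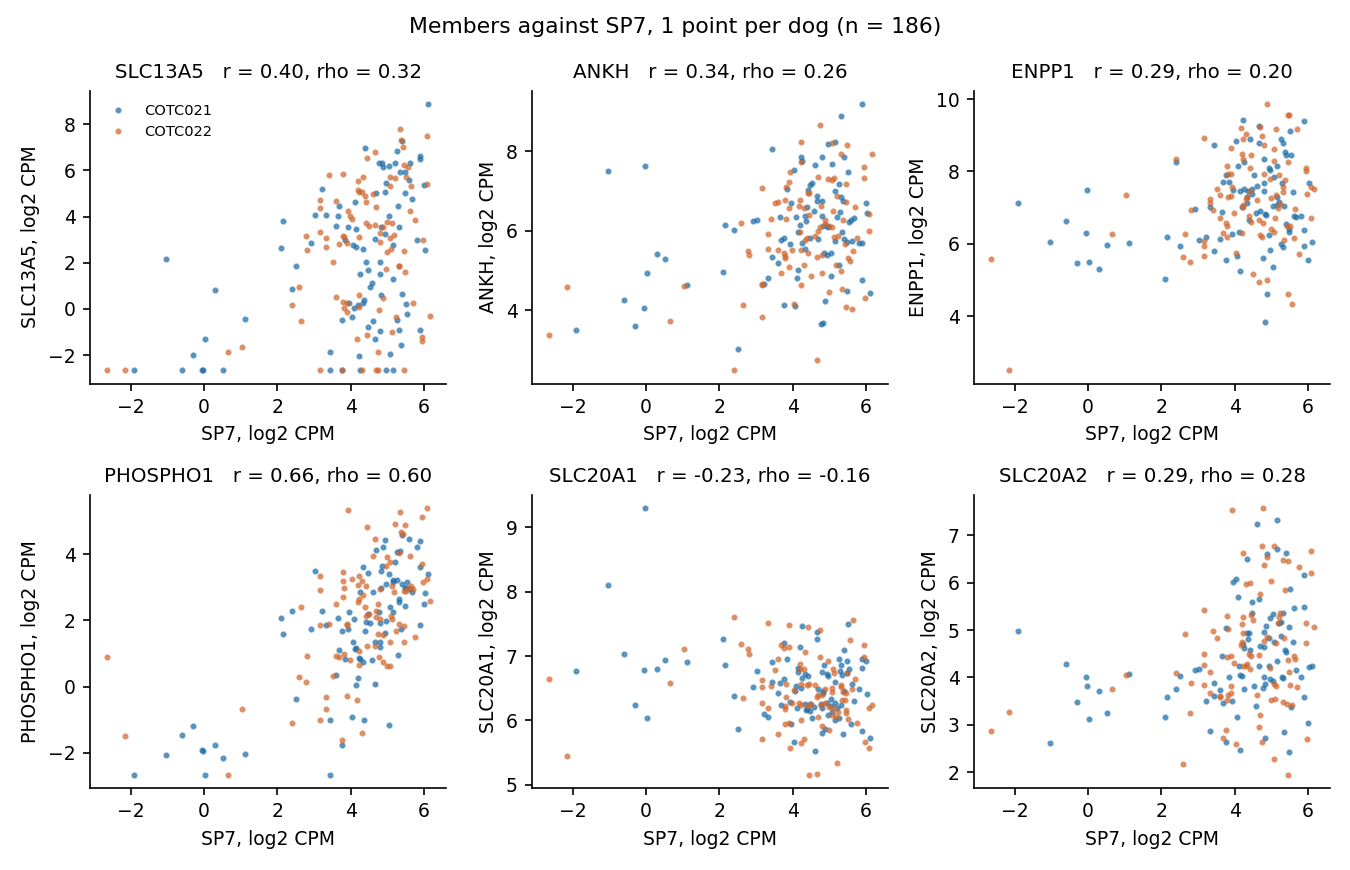
Each panel sets the level of 1 gene against SP7, both as TMM-normalized log2 CPM, with 1 point per dog coloured by trial and Pearson's r and Spearman's rho in the title. PHOSPHO1 follows SP7 most closely (r = 0.661), and 14 dogs lie apart at the left with SP7 at 1.105 or lower.

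No slope of the 6 genes differed between trials by the interaction test, with adjusted p from 0.756 for SLC20A1 to 0.983 for SLC20A2 (limma-voom). Over all genes, 0 were called for this interaction and 1160 had an unadjusted p under 0.05. With a score of 6 osteoblast markers in place of SP7 (RUNX2, BGLAP, IBSP, COL1A1 and SP7 itself among them), all 6 genes kept the direction of their slope and were called, where 40.9% of genes were (20% higher and 20.9% lower). Per SD of that score, the slope of PHOSPHO1 was 1.44, of SLC13A5 0.89, of ANKH 0.53, of SLC20A2 0.48, of ENPP1 0.47 and of SLC20A1 -0.15.

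Pearson's r with SP7 over the 186 dogs gave the same order at its head as the slopes of the main fit. It was 0.661 for PHOSPHO1 (rho = 0.597, permutation p = 1e-05 for both, the smallest that the 100000 resamples can give). For SLC13A5, r was 0.402 and rho 0.322 (permutation p = 1e-05 and 3e-05). For ANKH, r was 0.344 and rho 0.259 (permutation p = 1e-05 and 0.00039). For ENPP1, r was 0.294 and rho 0.196 (permutation p = 4e-05 and 0.00726). For SLC20A2, r was 0.288 and rho 0.281 (permutation p = 8e-05 and 0.00011), and for SLC20A1, r was -0.225 and rho -0.164 (permutation p = 0.00274 and 0.0249). Without the 2 dogs farthest from the median of SP7, r was 0.681 for PHOSPHO1, 0.368 for SLC13A5, 0.305 for ANKH, 0.213 for ENPP1, 0.260 for SLC20A2 and -0.293 for SLC20A1. Among the 172 dogs with more SP7, r was 0.484 for PHOSPHO1, 0.225 for ANKH, 0.224 for SLC20A2 and 0.175 for SLC13A5, and it was 0.114 for ENPP1 (permutation p = 0.137) and -0.140 for SLC20A1 (permutation p = 0.066). Among the 14 dogs with low SP7, r ranged from -0.391 for PHOSPHO1 to 0.393 for ENPP1 and none had a permutation p under 0.05. Within trials and groups of libraries, r stayed between 0.544 and 0.746 for PHOSPHO1, between 0.351 and 0.437 for SLC13A5, between 0.319 and 0.428 for ANKH, and between 0.259 and 0.334 for ENPP1. The rank correlation of ENPP1 was weaker, with rho of 0.196 in COTC021 and 0.191 in COTC022 (permutation p = 0.0598 and 0.0671) and of -0.034 in the deeper libraries (permutation p = 0.815). For ANKH, rho in the deeper libraries was 0.247 (permutation p = 0.0851). For SLC20A2, r was 0.304 in COTC021, 0.276 in COTC022, 0.320 in the 136 libraries and 0.175 in the deeper ones (permutation p = 0.226), where rho was 0.072 (permutation p = 0.62). For SLC20A1, r was -0.331 in COTC021 and -0.357 in the 136 libraries, against -0.088 in COTC022 and 0.224 in the deeper libraries (permutation p = 0.401 and 0.121), and rho in COTC021 was -0.147 (permutation p = 0.161).

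The third comparison used GS-1, a signature defined in earlier canine osteosarcoma, in which immune genes predominate. The 27 genes of it that the study kept after its own filter on low counts were used here, and its remaining genes were not. All 27 passed the filter of these fits, and the score of a dog was its mean z-score over them, from -1.28 to 3.57 over the 186 dogs. Slopes are changes in log2 CPM per SD of the score. PHOSPHO1 and SLC13A5 were lower in tumors with a higher score, and ANKH, ENPP1, SLC20A1 and SLC20A2 were not called. Of 13395 genes outside the genes of the score, 48.4% were called, 22.2% higher and 26.2% lower, so that 2 of 6 is no excess over the background.

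The slope of SLC13A5 was -0.90 per SD of the GS-1 score (SE 0.300, adjusted p = 0.00826 by limma-voom), or 0.535-fold. That of PHOSPHO1 was -0.63 (SE 0.156, adjusted p = 0.000371), or 0.647-fold. PHOSPHO1 was lower in both trials, at -0.76 in COTC021 (adjusted p = 0.0159) and -0.55 in COTC022 (adjusted p = 0.0234), and in the deeper libraries the slope was -0.57 and not called (adjusted p = 0.101). SLC13A5 was at -1.22 in COTC021 (adjusted p = 0.0304) and -0.70 in COTC022 (adjusted p = 0.177), and it was not called within either group of libraries (-0.91 and -0.72, adjusted p = 0.329 and 0.0777). Without the 14 dogs with low SP7, PHOSPHO1 remained called (-0.37, adjusted p = 0.0373) and SLC13A5 did not (-0.63, adjusted p = 0.0916).

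ENPP1 lay at the threshold, with a slope of -0.20 (SE 0.088, adjusted p = 0.0516 by limma-voom). It was called with the group of libraries in the model (-0.20, adjusted p = 0.0489) and was -0.07 without the 2 dogs farthest from the median of the score (adjusted p = 0.592). ANKH had a slope of -0.08 (95% confidence interval -0.26 to 0.10), SLC20A2 of -0.07 (interval -0.24 to 0.09) and SLC20A1 of -0.02 (interval -0.10 to 0.06). For SLC20A1, that interval is 0.933-fold to 1.04-fold per SD, in the model without SP7. No GS-1 slope of the 6 genes differed between trials (adjusted p = 1.00 for each by limma-voom), and over all genes 0 were called and 370 had an unadjusted p under 0.05.

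SP7 itself was lower in tumors with a higher GS-1 score (-0.79 per SD, SE 0.114, adjusted p = 9.91e-10 by limma-voom), so SP7 and the score were also fitted in 1 model. There, the GS-1 slope of PHOSPHO1 was 0.08 (adjusted p = 0.674) and that of SLC13A5 was -0.46 (adjusted p = 0.287), neither called. SP7 slopes remained called for all 6 genes, at 0.96 for PHOSPHO1, 0.69 for SLC13A5 (adjusted p = 0.0385), 0.35 for ANKH, 0.27 for SLC20A2, 0.23 for ENPP1 and -0.12 for SLC20A1. SLC20A1 was also lower with a higher score at a given SP7 (-0.12, adjusted p = 0.0289 by limma-voom), and ANKH stood at 0.23 (adjusted p = 0.0699). In this model, 23.6% of 13394 genes were called for SP7, 11.4% higher and 12.1% lower. For the score, 33.3% were called, 16.5% higher and 16.8% lower. The model was fitted over all dogs only, with the dog of highest SLC20A1 among them.

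**Figure D3:**
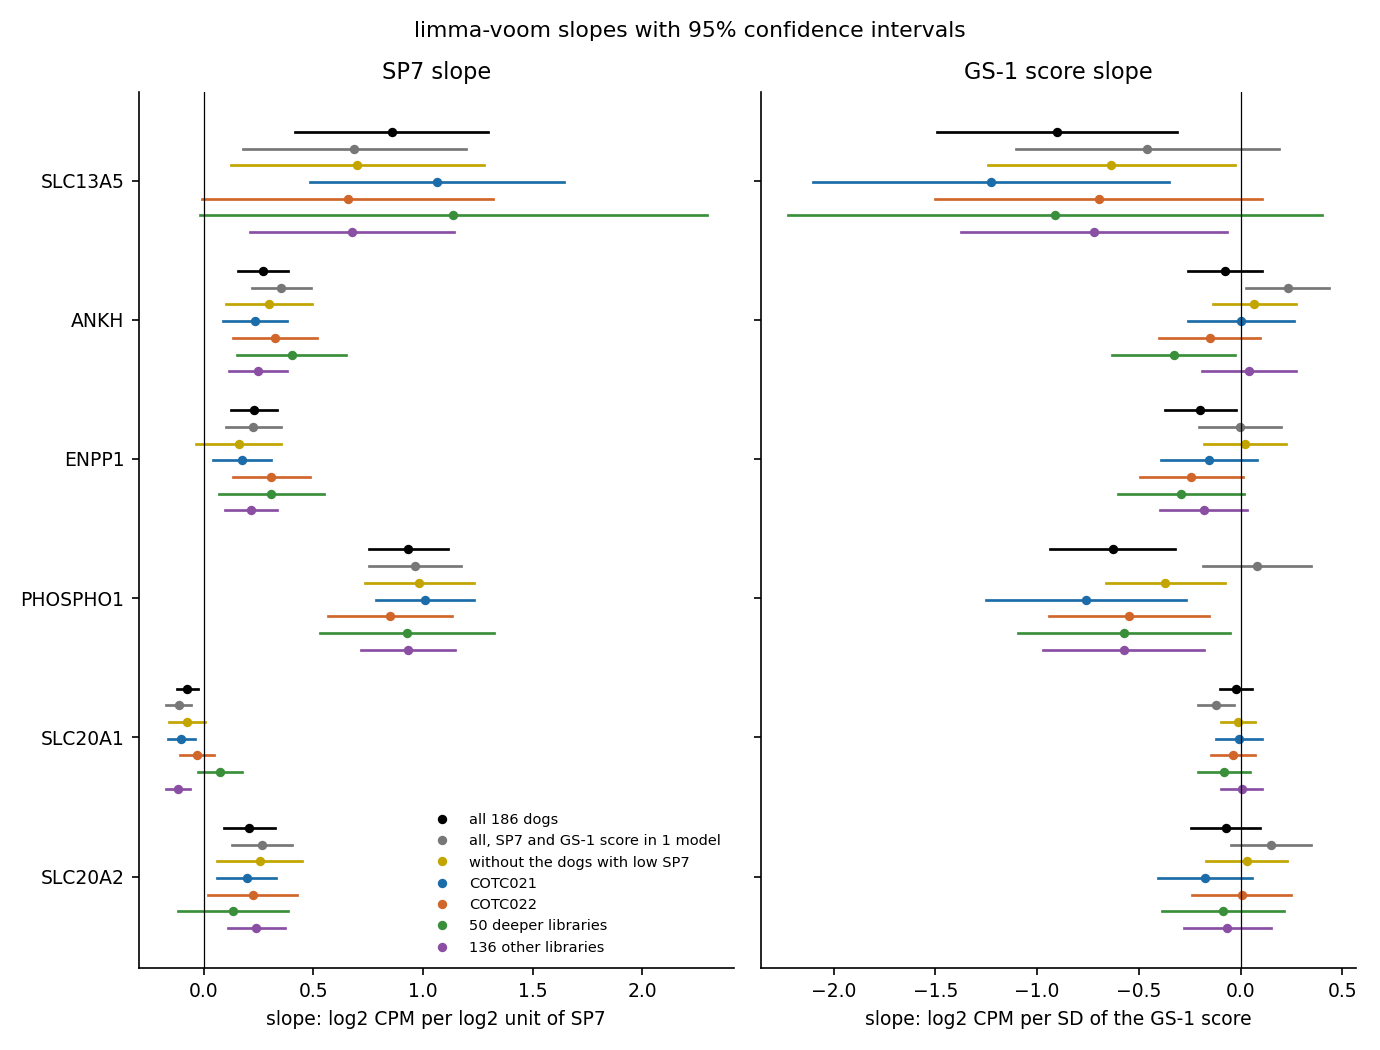
The horizontal axes give the limma-voom slope per log2 unit of SP7 (left) and per SD of the GS-1 score (right), as points with 95% confidence intervals, in all 186 dogs, in 1 model with both measures, without the 14 dogs with low SP7, and within each trial and group of libraries. The SP7 slope of PHOSPHO1 stays between 0.85 and 1.01 in every set, whereas its GS-1 slope moves from -0.63 to 0.08 when SP7 is in the model.

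Pearson's r with the GS-1 score was -0.334 for PHOSPHO1 (rho = -0.263, permutation p = 1e-05 and 0.00027) and -0.260 for SLC13A5 (rho = -0.247, permutation p = 0.00024 and 0.00054). Without the 2 dogs farthest from the median of the score, r was -0.275 and -0.220. Within trials and groups of libraries, r was between -0.464 and -0.283 for PHOSPHO1 and between -0.360 and -0.208 for SLC13A5. For ENPP1, r was -0.160 (permutation p = 0.0292) with a rho of -0.045 (permutation p = 0.54), and r was -0.053 without the 2 farthest dogs, so that this relation rests on those dogs. Within trials and groups of libraries, r of ENPP1 lay between -0.207 and -0.130. ANKH, SLC20A1 and SLC20A2 had r of -0.058, -0.034 and -0.077 (permutation p = 0.425, 0.646 and 0.296).

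Other cells of the tumor were followed by scores of marker lists. Of 6 markers in each list, all passed the filter on low counts for cartilage, macrophages, endothelium, skeletal muscle and proliferation, 5 for osteoclasts, 4 for T cells and 2 for adipocytes. Slopes are per SD of a score, with the trial in the model, and a slope is called at an adjusted p under 0.05 by limma-voom. The part of these cells in the SP7 and GS-1 slopes was not tested.

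Along the osteoclast score (range -2.40 to 1.68), ANKH was higher by 0.70 (SE 0.080, adjusted p = 4.90e-14), ENPP1 by 0.60 (SE 0.078, adjusted p = 2.77e-11) and SLC20A2 by 0.43 (SE 0.083, adjusted p = 9.02e-06). SLC13A5 was lower (-0.59, adjusted p = 0.0371), and PHOSPHO1 (0.24) and SLC20A1 (0.02) were not called. This score called 33.2% of all genes, 15.7% higher and 17.5% lower. The slopes of ANKH and ENPP1 on the osteoclast score were larger than on the score of osteoblast markers, a difference that was not tested.

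Along the proliferation score (range -3.13 to 1.71), which called 53.9% of genes (24.2% higher and 29.7% lower), SLC13A5 was higher by 1.13 (SE 0.300, adjusted p = 0.000686) and SLC20A1 by 0.13 (SE 0.039, adjusted p = 0.00292). ANKH (-0.30), ENPP1 (-0.28) and SLC20A2 (-0.27) were lower, and PHOSPHO1 was not called (0.13). SLC13A5 and ANKH therefore moved in opposite directions on both the osteoclast and the proliferation score, although both were higher with more SP7.

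Along the macrophage score, which called 49.1% of genes (22.2% higher and 26.9% lower), SLC13A5 (-0.71, adjusted p = 0.0133) and PHOSPHO1 (-0.48, adjusted p = 0.00171) were lower and the other 4 genes were not called. Along the T cell score, which called 33.8% (17.3% higher and 16.5% lower), PHOSPHO1 (-0.59, adjusted p = 0.00492) and ENPP1 (-0.32, adjusted p = 0.00202) were lower. On the cartilage score, where 29% of genes were called (13.9% higher and 15.1% lower), SLC13A5 was higher (0.58, adjusted p = 0.0115) and ANKH lower (-0.23, adjusted p = 0.0479). SLC20A2 was higher on the endothelial (0.22, adjusted p = 0.0247) and skeletal muscle scores (0.26, adjusted p = 0.0139), and SLC20A1 was lower on the adipocyte score (-0.14, adjusted p = 0.00196). The endothelial score called 40.8% of genes (20.2% higher and 20.6% lower), the skeletal muscle score 11.7% (7.92% and 3.78%) and the adipocyte score 29.7% (16.1% and 13.6%).

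The 6 genes formed 15 pairs. ANKH and ENPP1, which both supply extracellular pyrophosphate, were the most closely correlated, with r of 0.657 and rho of 0.701 (permutation p = 1e-05 for both). Their r was 0.654 without the 2 dogs farthest from the median of ENPP1, and between 0.571 and 0.723 within trials and groups of libraries. PHOSPHO1 and SLC13A5 formed the other close pair, with r of 0.548 and rho of 0.507 (permutation p = 1e-05 for both), 0.535 without the 2 farthest dogs, and between 0.541 and 0.554 within trials and groups of libraries.

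Between these pairs, the relations were weaker or negative. SLC13A5 was negatively correlated with ENPP1 (r = -0.304, rho = -0.340, permutation p = 7e-05 and 1e-05) and with ANKH (r = -0.270, rho = -0.307, permutation p = 0.00027 and 4e-05). Without the 2 farthest dogs, r was -0.356 and -0.287. Both were negative within each trial and group of libraries, from -0.393 to -0.232 for ENPP1 and from -0.319 to -0.213 for ANKH. In the 50 deeper libraries, these had a permutation p of 0.0565 and 0.0909. PHOSPHO1 showed r of 0.176 with ANKH (rho = 0.106, permutation p = 0.0165 and 0.149) and of 0.113 with ENPP1 (rho = 0.093, permutation p = 0.127 and 0.208).

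SLC20A2 was positively correlated with ANKH (r = 0.356, rho = 0.372, permutation p = 2e-05 and 1e-05), ENPP1 (r = 0.348, rho = 0.372, permutation p = 1e-05 for both) and PHOSPHO1 (r = 0.296, rho = 0.297, permutation p = 4e-05 and 7e-05). Without the 2 farthest dogs, r was 0.346, 0.364 and 0.292, and within trials and groups of libraries it was between 0.260 and 0.393 for all of them. SLC20A1 was negatively correlated with SLC20A2 (r = -0.290, rho = -0.288, permutation p = 7e-05 and 6e-05), with r from -0.304 to -0.253 within trials and groups of libraries and -0.271 without the 2 farthest dogs. It was also negatively correlated with PHOSPHO1 (r = -0.303, rho = -0.235, permutation p = 3e-05 and 0.00117), with r of -0.238 without the 2 farthest dogs, -0.308 and -0.280 in the trials, -0.378 in the 136 libraries and -0.056 in the deeper ones. With SLC13A5, r of SLC20A1 was -0.189 (rho = -0.148, permutation p = 0.00978 and 0.0422) and -0.158 without the 2 farthest dogs, and from -0.253 to -0.020 within trials and groups of libraries. The other 3 pairs had a permutation p above 0.5. In all, 27 relations were computed, 6 with SP7, 6 with the score and 15 among the genes, and 20 had a permutation p of r under 0.05, without adjustment.

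**Figure D4:**
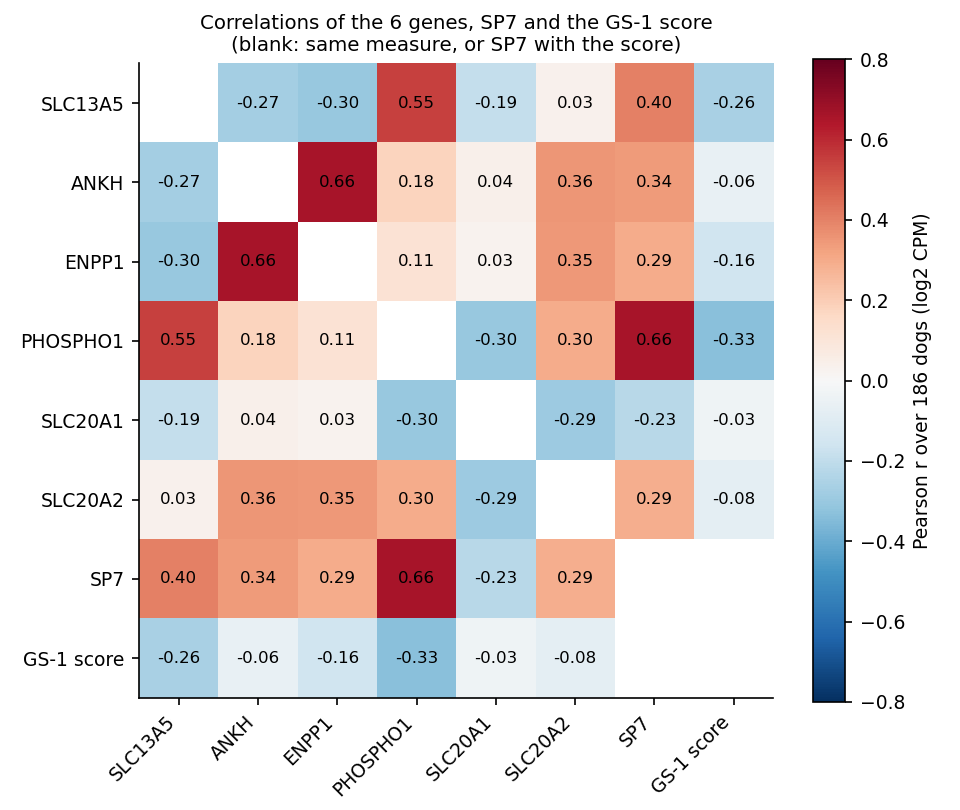
Each cell gives Pearson's r over 186 dogs between the gene or score of its row and that of its column, on TMM-normalized log2 CPM, with red for positive and blue for negative values. ANKH with ENPP1 (0.66) and SLC13A5 with PHOSPHO1 (0.55) stand out, and SLC13A5 is negative with both ANKH and ENPP1.

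The genes most alike in pattern were those with the highest Pearson's r over the 186 dogs, given here as a description. For PHOSPHO1, they were SLC36A2 (r = 0.791), IFITM5 (0.791), SMPD3 (0.767), SLC8A3 (0.744) and RANBP3L (0.739), and CAV1 had the lowest r (-0.524). IFITM5 is a membrane protein of osteoblasts, and SMPD3 is a sphingomyelinase that releases phosphocholine, a substrate of PHOSPHO1. IFITM5 (r = 0.573) and SMPD3 (0.579) were also among the 5 of SLC13A5, with RCOR2 (0.651), GSC (0.644) and PDZRN4 (0.566), and MOSPD2 was lowest (-0.531).

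ANKH and ENPP1 shared the first 2 genes of their lists. CD200, a membrane glycoprotein that binds a receptor on myeloid cells, had r of 0.697 with ANKH and 0.650 with ENPP1. SLC29A1, which carries nucleosides across the membrane, had r of 0.642 and 0.636. The lists went on with KCNK2 (0.629), TRABD2A (0.613) and AK5 (0.610) for ANKH, and C1QTNF1 (0.603), WNT2B (0.594) and GLDN (0.583) for ENPP1. The lowest were NXN for ANKH (-0.630) and ROR2 for ENPP1 (-0.541).

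The highest r of SLC20A1 was below that of each of the other 5, with SLC19A2 (0.523), FOSL1 (0.519), PLAU (0.518) and CERS2 (0.482) among those at the top and AGBL4 lowest (-0.515). PLAU is the urokinase plasminogen activator, and its r was 0.347 in the trial or group of libraries where it was lowest.

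For SLC20A2, the most alike genes were VDAC3 (r = 0.652) and POLB (0.563), followed by NPY (0.554), GJA5 (0.546) and CD200 (0.524), with BCAT1 lowest (-0.474). VDAC3, a channel of the outer mitochondrial membrane, and POLB, a DNA repair polymerase, both lie next to SLC20A2 on chromosome 16. VDAC3 lies 8664 bases away, from 24010292 to 24023302, and POLB 38117 bases away, from 24039745 to 24068768. None of the most alike genes of the other members lay within 1 Mb of its member.

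After this was seen, the genes within 1 Mb of each member were examined, so VDAC3 and POLB, which prompted this step, are counted here. Of 20 such genes that passed the filter near SLC20A2, 18 had a positive r, and the median was 0.229, against -0.003 over all 13421 genes. An r above 0.203, the 90th percentile over all genes, was found for 12 of the 20. Without VDAC3 and POLB, 16 of 18 had a positive r, the median was 0.220 and 10 had an r above 0.203. PLAT (0.456), SMIM19 (0.407), IKBKB (0.353) and POMK (0.337) were among them. SMIM19 shares 221 bases with SLC20A2, whereas VDAC3, POLB and PLAT overlap it nowhere. SFRP1, 993968 bases away, had the lowest r (-0.089).

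Near SLC13A5, 25 of 30 genes had a positive r with it, with a median of 0.235, and 13 exceeded its 90th percentile of 0.259. The count above the 90th percentile was 6 of 16 for SLC20A1, 3 of 8 for ENPP1, 7 of 39 for PHOSPHO1 and 1 of 2 for ANKH. Neighbouring genes are not independent of each other, and DNA copy number was not analysed here.

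**Figure D5:**
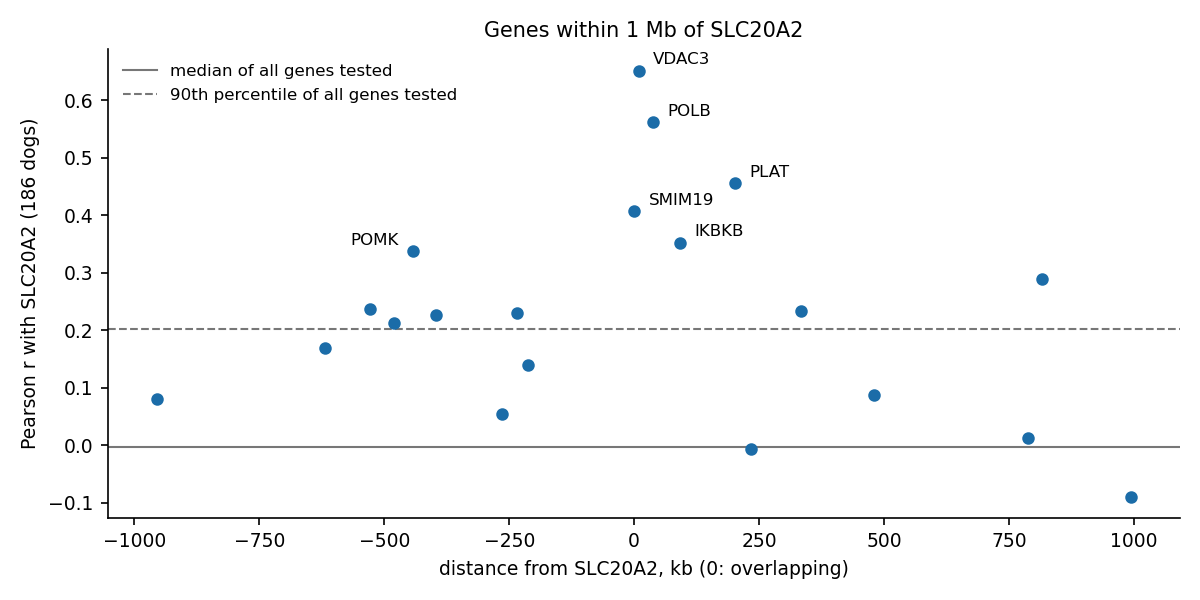
Points are the 20 genes within 1 Mb of SLC20A2 that passed the filter, by their distance from it in kb (horizontal) and their Pearson's r with it over 186 dogs (vertical), and the lines mark the median (-0.003) and the 90th percentile (0.203) over all genes tested. VDAC3 and POLB, the nearest on the right, have the highest r, 0.652 and 0.563.

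The rest of the pathway was read from a list of 31 genes for mineralization and phosphate and citrate metabolism. Of these, 30 have a row in the table and 20 passed the filter on low counts. Those that did not include the kidney and gut phosphate importers SLC34A1, SLC34A2 and SLC34A3, and ABCC6, MEPE, AHSG, FGF23, KL, SLC13A3 and SLC13A4. No gene of the list was called between the trials.

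With more SP7, 11 of the 20 were higher, 1 was lower and 8 were not called, where 21.8% of all genes were higher and 23.1% lower. The median slope over the 20 was 0.13. Without the 14 dogs with low SP7, 9 were higher and 1 was lower, where 15.6% of all genes were higher and 17.9% lower. SLC13A2 and XPR1 were then no longer called. In the deeper libraries, 7 were higher and 1 was lower, and BGLAP, DMP1, PHEX, SLC13A2, VDR and XPR1 were not called, where 9.65% of all genes were higher. The steepest were IBSP (1.09) and SMPD3 (1.08), followed by ALPL (1.03), the phosphatase that breaks down pyrophosphate. The matrix proteins DMP1 (0.80) and BGLAP (0.76) were next, with PHEX (0.60), an endopeptidase whose loss causes renal phosphate wasting, GALNT3 (0.51), which glycosylates FGF23, and SLC13A2 (0.32), a related dicarboxylate importer. VDR (0.27) and the phosphate exporter XPR1 (0.13) were also higher. ACO1, the cytosolic aconitase, was lower (-0.08, adjusted p = 0.000713 by limma-voom). Citrate synthase (CS), the mitochondrial citrate carrier SLC25A1 and ACLY, which splits citrate, had slopes of 0.0004, 0.04 and 0.01 and were not called. PHOSPHO1 (0.93) and SLC13A5 (0.86) thus had slopes near those of the matrix genes. Those of ANKH (0.27), ENPP1 (0.23) and SLC20A2 (0.21) were near that of VDR. By r with SP7, however, SLC13A5 (0.402) lay nearer to ANKH (0.344) than to PHOSPHO1 (0.661).

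With a higher GS-1 score, 4 of the 20 were lower, 2 were higher and 14 were not called, where 26.2% of all genes were lower and 22.2% higher. Without the 14 dogs with low SP7, 1 was lower and 3 were higher, where 20.2% of all genes were lower and 18.3% higher. IBSP, SMPD3 and GALNT3 were then no longer called. In all dogs, lower were ALPL (-0.92), IBSP (-0.91), SMPD3 (-0.81) and GALNT3 (-0.36), beside PHOSPHO1 (-0.63) and SLC13A5 (-0.90). Higher were SPP1 (0.36, adjusted p = 0.00618 by limma-voom), which encodes osteopontin, and ACO1 (0.23, adjusted p = 7.37e-13). DMP1 (-0.39), BGLAP (-0.31) and PHEX (-0.13) were not called.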

How the data were processed

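The authors trimmed reads with cutadapt, aligned them with STAR 2.7.0f to the canine build GSD_1.0, quantified genes with RSEM 1.3.1 and deposited expected counts without normalization. Libraries were TruSeq Stranded mRNA, and the strand setting of the counting is not given in the sources used here. Expected counts divide reads that fit several genes, 3.07% of values were not whole, and they were rounded. Of 198 columns, 12 match no listed sample and were not used. Trials come from the sample titles. Each sample is 1 dog, so p-values measure the spread between dogs.

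Low counts were filtered with filterByExpr of edgeR 4.0.16, set to a minimum count of 10, a proportion of 0.5 and a large n of 5, without groups. Genes kept were normalized by TMM and fitted by limma 3.58.1 voom (R 4.3.3), two-sided, Benjamini-Hochberg adjusted over all genes kept, called under 0.05. Scores are mean z-scores of quantile-normalized log2(CPM + 2). Log2 CPM used a prior count of 2. The fit was also run on simulated counts with known changes, drawn for each gene independently, and no result here rests on it. The quasi-likelihood fit of edgeR and DESeq2 1.42.0 served as alternatives. Correlations used 100000 permutations (numpy 2.4.6, scipy 1.17.1).

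The genes and all lists were chosen with earlier results of these data known. Named besides the 6 genes are SP7, marker lists, the pathway list and, per gene, the 5 genes with the highest and the 1 with the lowest Pearson's r, LOC names and other members left out. RAB24, VPS9D1 and neighbours of SLC20A2 were named after their values were seen. Gene positions are from RefSeq on GSD_1.0. Results for some genes that these rules name are left out of the text.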

Additional observations from a re-analysis of the deposited data

Results flagged for a closer look

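The SLC20A1 slope on SP7 differed between the groups of libraries. The interaction was tested after the slopes within the groups had been seen, and the slope was higher by 0.19 (SE 0.058, adjusted p = 0.0329 by limma-voom) in the 50 deeper libraries than in the other 136. It was called for 4.27% of 13421 genes. The value was 0.17 (adjusted p = 0.0625) without the dog of COTC021 with the highest SLC20A1, which is not a deeper library, and 0.18 (adjusted p = 0.624) without the 14 dogs with low SP7, of which 12 are in the 136 libraries. The dog with the highest SLC20A1 is among those 14, so these removals overlap. No other of the 6 genes differed in this way (adjusted p from 0.663 for SLC13A5 to 0.980 for PHOSPHO1). Of the GS-1 slopes none did (adjusted p from 0.735 for ANKH to 0.997 for PHOSPHO1). For those slopes, 0 of all 13395 genes tested were called, and 958 had an unadjusted p under 0.05 by limma-voom.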

How the results depend on the processing

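Of 234 values of the 6 genes under alternatives, 193 kept their direction and side of the threshold, 18 lost the call, 3 gained it and 20 changed sign. Of 46 counts of genes called, 33 stayed within 1.5 times the main count. The causes of the changes were not tested. Some settings also hold fewer dogs or test more genes. Of the 6 genes, SLC13A5 and PHOSPHO1 had the most dogs with fewer than 10 counts, 51 and 27. Among the 50 deeper libraries these were 10 and 4, and among the other 136 they were 41 and 23. The part of depth in this was not tested. No paired analysis was possible because each dog gave 1 tumor and the labels share no number between the trials.

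The trial difference called 129 genes by edgeR's quasi-likelihood fit, 91 by DESeq2, 8 in the 136 libraries and 0 in the deeper ones by limma-voom, where 829 had an unadjusted p under 0.05, against 2. The SP7 slope called 9221 of 30013 genes with no filter, 3229 in the deeper libraries, 3843 in COTC021, 3726 in COTC022 and 3158 with the GS-1 score in the model, against 6024. The GS-1 slope called 3258 in the deeper libraries and 3407 in COTC021, against 6480. The difference of SP7 slopes between groups of libraries called 0 without the dogs with low SP7 (1077 unadjusted, limma-voom), against 573. Of 27 correlations, 13 had a permutation p under 0.05 in the deeper libraries, against 20.

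For trial differences, the sign changed in the deeper libraries for ANKH (0.11), PHOSPHO1 (-0.38) and SLC13A5 (-0.89), and for SLC13A5 by edgeR (-0.083) and DESeq2 (-0.080). The SP7 slope of SLC20A1 changed sign in the deeper libraries (0.074). The GS-1 slope of ANKH changed sign by edgeR (0.017), by DESeq2 (0.018), in the 136 libraries (0.040), in COTC021 (0.0039), with SP7 in the model (0.23) and without the dogs with low SP7 (0.068). That of ENPP1 was 0.021 without those dogs, that of PHOSPHO1 0.081 with SP7 in the model, that of SLC20A1 0.0063 in the 136 libraries and 0.014 without the 2 farthest dogs, and that of SLC20A2 0.0059 in COTC022, 0.15 with SP7 in the model and 0.029 without the dogs with low SP7. The difference of SP7 slopes between groups of libraries was -0.34 for ENPP1 without the dogs with low SP7.

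Among correlations, r changed sign for SLC20A1 with SP7 in the deeper libraries (0.224) and among the 14 dogs with low SP7 (0.207), and there for PHOSPHO1 with SP7 (-0.391). With the GS-1 score, it did for ANKH in COTC021 (0.0023) and the 136 libraries (0.042), for SLC20A1 without the 2 farthest dogs (0.031) and in the 136 libraries (0.029), and for SLC20A2 in COTC022 (0.0061). It did for SLC13A5 with SLC20A2 in COTC021 (-0.015) and the 136 libraries (-0.011), for ANKH with SLC20A1 without the 2 farthest dogs (-0.017) and in the deeper libraries (-0.0058), and for ENPP1 with SLC20A1 in COTC021 (-0.0035) and the 136 libraries (-0.039).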

Other observations

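Along the osteoclast score, 15 of the 20 tested genes of the pathway list were higher and 1 was lower, where 15.7% of all genes were higher and 17.5% lower, with a median slope of 0.49. The steepest were SLC13A2 (1.97 per SD, SE 0.080), DMP1 (1.25, SE 0.252), SPP1 (1.24, SE 0.075) and ENPP3 (1.13, SE 0.073), the last a relative of ENPP1. Those of IBSP (0.73), XPR1 (0.71), PHEX (0.67), BGLAP (0.67) and NT5E (0.63) followed. ACLY was lower (-0.10, adjusted p = 0.0454 by limma-voom). SLC13A2 and SLC13A5, importers of the same family, thus had slopes of opposite sign on this score, 1.97 and -0.59. Levels of SLC13A2 and ENPP3 were low, with medians of 1.26 and 2.14 CPM and at least 10 counts in 113 and 148 dogs.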
